A study of Mus musculus with 9 samples.

Results

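The genes described here encode 10 proteins that write, maintain or remove DNA methylation or that form the core of Polycomb repressive complex 2 (PRC2). They were chosen by name, with earlier results of these data known, and are Dnmt1, Dnmt3a, Dnmt3b, Uhrf1, Tet1, Tet2, Tet3, Ezh2, Suz12 and Eed. All 10 were found among the 55450 genes of the count table once Ensembl identifiers had been matched to symbols, and all 10 were among the 19357 genes that passed the filter on low counts. RNA was sequenced from EYFP+ live mammary cells that had been sorted from adult nulliparous mice. Every mouse carried lsl-EYFP, a Cre-activated fluorescent reporter, and K8CreERT2, a tamoxifen-inducible Cre recombinase driven by the promoter of the luminal keratin gene Krt8, and every mouse received tamoxifen. Control mice (lsl-EYFP;K8CreERT2) had no floxed gene, LATS1/2-KO mice also carried LATS1/2f/f, and LATS1/2-Sox9-KO mice carried LATS1/2f/f and Sox9f/f. Tamoxifen was injected at 2 mg on 5 days in a row and the glands were taken 7 days after the last dose. Each group had 3 libraries of 44167762 to 61967651 counts. The labels give neither the age nor the strain background of the mouse behind each library, and they do not say that libraries of a group came from separate mice, so the p-values below measure the spread between these libraries, which may be technical.

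The counts of the targeted genes were checked against the labels first. Lats1, a Hippo pathway kinase gene, gave normalized read counts of 5672, 5929 and 5940 in the control libraries, 2090, 1923 and 2336 in those labelled LATS1/2-KO, and 2058, 1844 and 1709 in those labelled LATS1/2-Sox9-KO. Normalized counts are counts divided by the library size after trimmed-mean (TMM) scaling and multiplied by the mean library size. Lats1 was 2.76-fold and 3.13-fold lower than control in the 2 deleted groups. Lats2, its paralogue, did not fall with the labels, at 1039, 865 and 1220 in control, 1256, 1434 and 1723 in LATS1/2-KO and 1957, 1580 and 1240 in LATS1/2-Sox9-KO (log2 fold changes 0.50, adjusted p = 0.0571, and 0.61, adjusted p = 0.024, edgeR). Sox9 was at 23313, 19948 and 21534 in control, 7205, 9506 and 12433 in LATS1/2-KO and 8812, 6756 and 6460 in LATS1/2-Sox9-KO. The 2 deleted groups overlapped for Sox9 (log2 difference of -0.40 ± 0.19 (SE), edgeR adjusted p = 0.25), so gene-level counts of Sox9 and Lats2 do not check those labels. Which exons the alleles remove was not given in the sources used here, and the groups are therefore named by their labels throughout. The control libraries correlated with the others at a Spearman rho of at most 0.895 across genes, whereas the library closest to LATS1/2-KO replicate 1 was LATS1/2-Sox9-KO replicate 3 (0.973, against 0.969 as the lowest value within its own group). Without LATS1/2-KO replicate 1, 8 of the 10 genes passed in LATS1/2-KO against control in place of 9, the one lost being Tet2, beside 55.8% of all genes tested in place of 55.7%.

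DNA methylation at CpG sites is set up by the de novo methyltransferases DNMT3A and DNMT3B. It is copied to the new strand at replication by DNMT1, which UHRF1 recruits to hemimethylated sites. TET enzymes oxidize methylated cytosine as a step towards its removal. PRC2, built on EZH2, EED and SUZ12, methylates lysine 27 of histone H3 (H3K27), a mark of silent developmental genes, and in the mammary gland these systems are known to take part in keeping luminal and basal identities apart. Methylation itself was not measured here, and the values below are RNA levels. Because whole sorted samples were sequenced, fewer cells of a type and less RNA per cell cannot be told apart.

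RefSeq promoter windows (GRCm38.p6, 250 bases before to 50 after an annotated start) were read for all 10 genes, 15 windows in all. Windows were searched on both strands for 4 spellings of the E2F site, TTTCCCGC, TTTGGCGC, TTTCGCGC and TTTGCCGC, since E2F factors are known to control genes of DNA replication. At least 1 of these spellings was present in 2.26% of the 32851 windows of all genes. Among the 10 genes, Dnmt1, Uhrf1, Ezh2 and Suz12 had one in 1 of their windows, which is 4 of the 15 windows. All 4 spellings contain CG, and these windows had 31 to 41 CpG dinucleotides, against a median of 7. The 2.26% is therefore not a matched background, and no windows matched for CpG were compared. These 4 windows are shown because they share a letter pattern while the RNA of Dnmt1 and Uhrf1 moved in opposite directions below. Capitals mark the E2F spelling on either strand.
Dnmt1 (chr9:20952574-20952873, minus strand): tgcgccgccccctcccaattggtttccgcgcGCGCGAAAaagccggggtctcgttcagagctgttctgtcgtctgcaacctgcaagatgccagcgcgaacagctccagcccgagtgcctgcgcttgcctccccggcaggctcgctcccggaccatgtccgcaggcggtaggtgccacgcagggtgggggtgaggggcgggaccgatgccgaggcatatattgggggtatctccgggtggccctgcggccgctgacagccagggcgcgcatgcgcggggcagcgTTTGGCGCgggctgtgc
Uhrf1 (chr17:56304063-56304362, plus strand): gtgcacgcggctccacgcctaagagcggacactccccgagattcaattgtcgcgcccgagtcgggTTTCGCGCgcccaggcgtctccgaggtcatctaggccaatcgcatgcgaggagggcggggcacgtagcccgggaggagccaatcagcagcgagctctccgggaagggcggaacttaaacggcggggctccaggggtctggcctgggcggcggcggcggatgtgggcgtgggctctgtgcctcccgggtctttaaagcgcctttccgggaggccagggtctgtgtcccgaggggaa
Ezh2 (chr6:47594981-47595280, minus strand): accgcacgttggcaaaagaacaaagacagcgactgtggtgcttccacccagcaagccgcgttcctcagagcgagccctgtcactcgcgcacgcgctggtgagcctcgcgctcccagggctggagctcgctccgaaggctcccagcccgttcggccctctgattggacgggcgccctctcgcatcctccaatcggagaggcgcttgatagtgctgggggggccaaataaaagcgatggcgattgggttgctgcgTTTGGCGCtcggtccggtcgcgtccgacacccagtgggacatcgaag
Suz12 (chr11:79992856-79993155, plus strand): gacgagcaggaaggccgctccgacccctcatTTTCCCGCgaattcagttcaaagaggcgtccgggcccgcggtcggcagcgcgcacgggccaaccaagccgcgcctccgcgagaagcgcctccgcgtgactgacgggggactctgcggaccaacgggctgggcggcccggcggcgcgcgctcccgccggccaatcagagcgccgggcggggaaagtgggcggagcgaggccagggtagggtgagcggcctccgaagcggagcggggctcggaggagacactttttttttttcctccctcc
Dnmt1 held 2 spellings, one on the opposite strand starting at -219 from the start site and one at 33 after it, in a window with 33 CpG dinucleotides against a median of 7 over all windows. The Uhrf1 window also had 33 CpG dinucleotides and its spelling began at -185, that of Suz12 at -219 and that of Ezh2 at 3. Both Dnmt1 and Uhrf1 have further annotated windows without these letters, and gene-level counts do not say which start was used. A short site of TEAD factors, the DNA-binding partners of YAP and TAZ downstream of LATS1/2, is spelled GGAATG and was present in 14.7% of all windows. It occurred in 1 of the 15 windows, the other annotated window of Uhrf1 (chr17:56303087-56303386), at -193. The cell-cycle element spelled TTTGAA, found in 17.9% of all windows, occurred in windows of Dnmt3b, Eed, Dnmt1 and Suz12 and overlapped none of the E2F spellings. A match describes letters in a window and not a bound site.

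The first comparison set the K8-lineage cells labelled LATS1/2-KO against control. Of the 10 genes, 9 differed from control in the libraries labelled LATS1/2-KO by edgeR's quasi-likelihood test at an adjusted p of at most 0.05. Uhrf1, Dnmt3b and the PRC2 genes Ezh2 and Eed were higher, and Dnmt1, Tet1, Tet2 and Tet3 were lower. Suz12 passed as higher, but its direction turned with GC offsets, and Ezh2 did not pass with them. Dnmt3a did not pass. The background was high, since 28.7% of all genes tested were called higher and 27.1% lower. With an absolute log2 fold change above 1 required as well, 4 of the 10 (Uhrf1, Dnmt1, Tet1 and Tet3) were called, beside 34.6% of all genes. With GC offsets Dnmt1 (-0.85) and Tet3 (-0.96) did not reach the fold threshold there. In LATS1/2-Sox9-KO against control, 8 of the 10 passed, with Uhrf1, Ezh2 and Eed higher (29.3% of all genes were called higher) and Dnmt1, Dnmt3a, Tet1, Tet2 and Tet3 lower (28.7%). The same 4 genes passed the fold threshold there, beside 37.4% of all genes, and with GC offsets Dnmt1 (-0.97) did not reach it while Tet2 (-1.06) did. The 2 comparisons use the same control libraries and are given side by side. The groups did not overlap for 9 of the 10 genes in the first comparison, beside 61.6% of all genes tested, and for 8 in the second, beside 68.8%. With 3 libraries against 3, an exact permutation test cannot go below p = 0.1, so the tests rest on the edgeR fit over all genes.

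**Figure D1:**
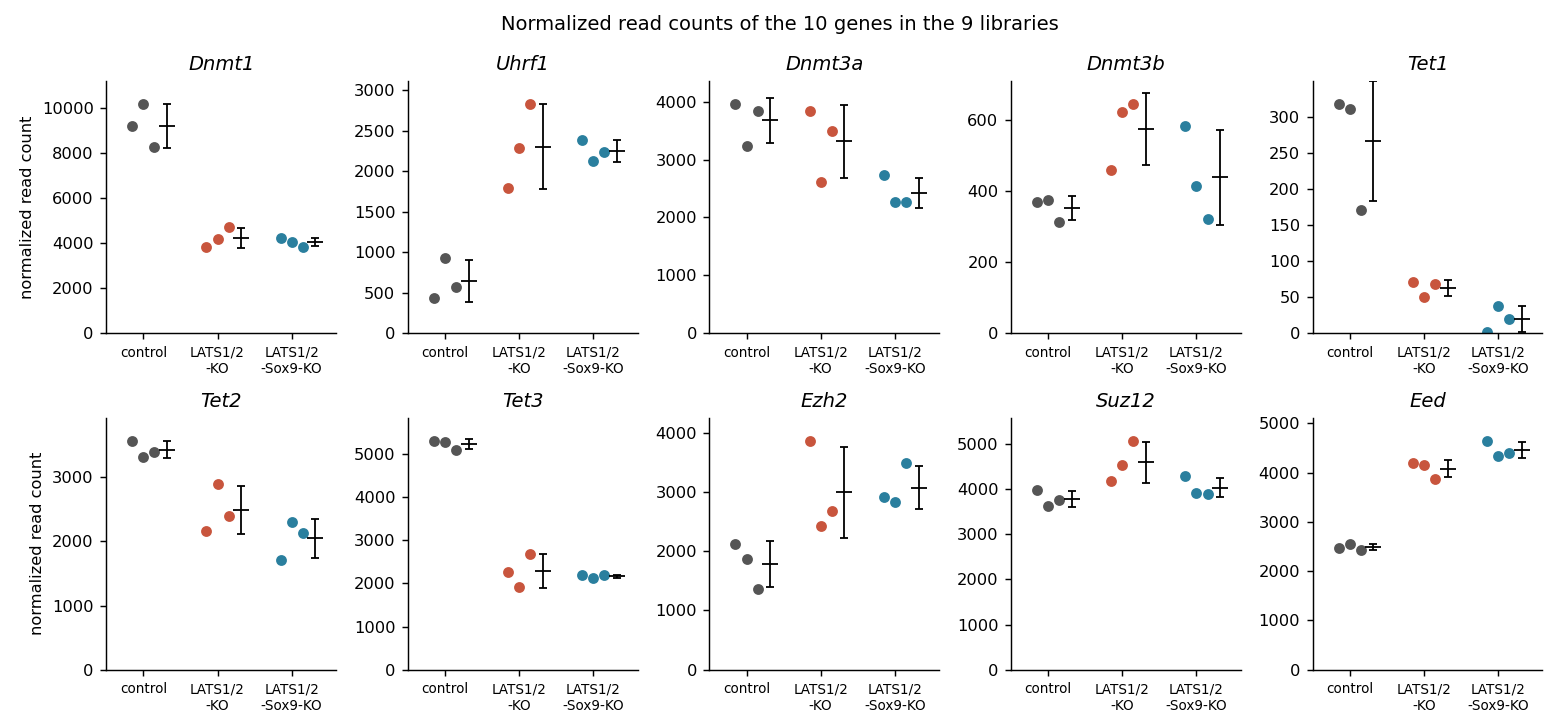
Normalized read counts (y axis, from 0) of each gene in the 9 libraries, with points for libraries of control (grey), LATS1/2-KO (red) and LATS1/2-Sox9-KO (blue) and the mean ± SD beside each group (n = 3). Dnmt1 is at 8258 or more in every control library and at 4702 or less in every other one, and Uhrf1 is at most 931 in control and at least 1787 in the others.

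Dnmt1 and Uhrf1, which act together in maintenance methylation, moved in opposite directions. Dnmt1 (ENSMUSG00000004099, chr9:20907209-20959888, minus strand, GRCm38) encodes the maintenance methyltransferase and was the most abundant of the 10 in control per length of exon. Its normalized counts were 9187, 10187 and 8258 in control, 3834, 4165 and 4702 in LATS1/2-KO and 4211, 4068 and 3846 in LATS1/2-Sox9-KO. All 6 deleted libraries lay below all 3 control libraries. Dnmt1 was 2.18-fold lower in LATS1/2-KO (log2 fold change -1.12 ± 0.12 (SE), adjusted p = 3.33e-05, edgeR) and 2.28-fold lower in LATS1/2-Sox9-KO (-1.19 ± 0.12, adjusted p = 1.82e-05). Uhrf1 (ENSMUSG00000001228, chr17:56303321-56323486, plus strand) encodes the protein that brings DNMT1 to replicated DNA. It was counted at 434, 931 and 565 in control, 1787, 2290 and 2833 in LATS1/2-KO and 2388, 2127 and 2240 in LATS1/2-Sox9-KO. The highest control library was again well below the lowest deleted one, although control replicate 2 stood above the other control libraries. Uhrf1 was 3.58-fold and 3.50-fold higher (log2 fold changes 1.84 ± 0.27, adjusted p = 2.67e-04, and 1.81 ± 0.27, adjusted p = 2.59e-04, edgeR). Its log2 fold change stood at the 90th percentile of all genes tested in the first comparison and that of Dnmt1 at the 18.7th.

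Per kilobase of exon, the ratio of Uhrf1 to Dnmt1 was 0.0818, 0.158 and 0.119 in the control libraries. It was 0.807, 0.952 and 1.04 in LATS1/2-KO and 0.983, 0.906 and 1.01 in LATS1/2-Sox9-KO. The ratio of the pair thus rose from well below 1 to near 1 in every deleted library, 7.82-fold and 8.08-fold on the group means, with no overlap between control and deleted libraries. Dnmt1 kept its ratio to Tet3, at 3.98 ± 0.36 in control, 4.24 ± 0.60 in LATS1/2-KO and 4.22 ± 0.20 in LATS1/2-Sox9-KO (SD, n = 3), which overlapped. Against Pcna, the replication clamp that also binds DNMT1, Dnmt1 fell from a ratio of 0.633 ± 0.065 to 0.166 ± 0.014 and 0.155 ± 0.008, again without overlap. These ratios depend on the exon length assigned to each gene, but their fold changes between groups do not. The fall of Dnmt1 against Pcna was smaller with GC offsets. With them the log2 fold changes in LATS1/2-KO were -0.85 for Dnmt1 and 0.42 for Pcna, against -1.12 and 0.79 without them.

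**Figure D2:**
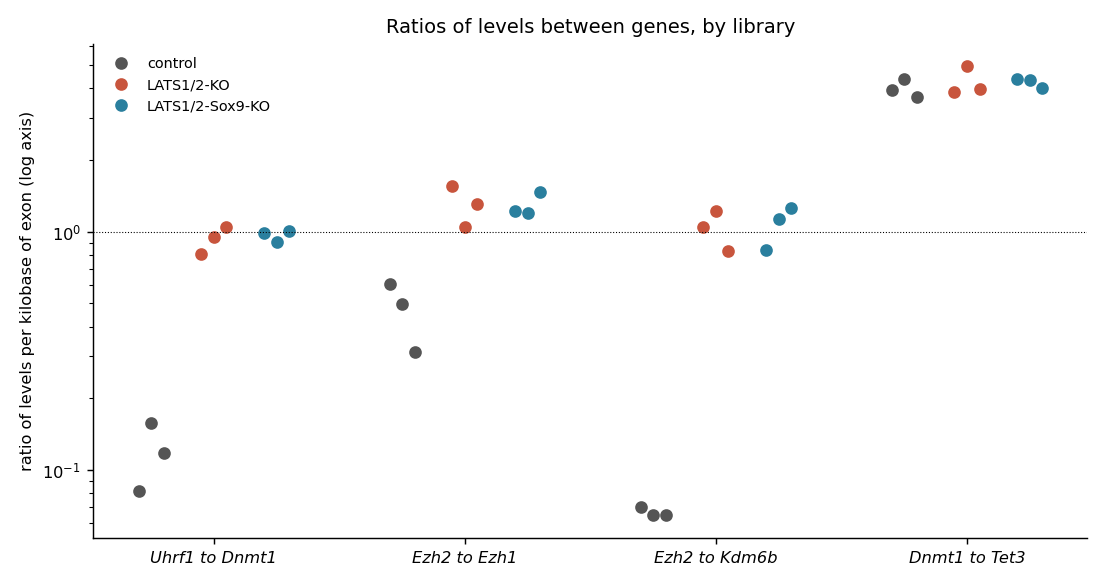
Ratios of levels per kilobase of exon between pairs of genes (log y axis), each point a library of control (grey), LATS1/2-KO (red) or LATS1/2-Sox9-KO (blue), with the dotted line at 1. The ratios of Uhrf1 to Dnmt1, Ezh2 to Ezh1 and Ezh2 to Kdm6b are higher in all 6 deleted libraries than in control, and the ratio of Dnmt1 to Tet3 overlaps between groups.

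The de novo methyltransferase genes each passed in 1 of the 2 control comparisons. Dnmt3a (ENSMUSG00000020661, chr12:3806007-3914443, plus strand) was at 3964, 3234 and 3838 in control, 3839, 2610 and 3501 in LATS1/2-KO and 2731, 2271 and 2275 in LATS1/2-Sox9-KO. The LATS1/2-KO libraries overlapped control and the LATS1/2-Sox9-KO libraries did not. Its log2 fold change in LATS1/2-KO was -0.15 (95% interval -0.50 to 0.20, adjusted p = 0.448, edgeR), and in LATS1/2-Sox9-KO it was 1.52-fold lower (-0.60 ± 0.16, adjusted p = 0.00825). Dnmt3b (ENSMUSG00000027478, chr2:153649450-153687730, plus strand) was counted at 369, 374 and 314 in control, 460, 624 and 647 in LATS1/2-KO and 585, 415 and 321 in LATS1/2-Sox9-KO. All LATS1/2-KO libraries were above control, while LATS1/2-Sox9-KO replicate 3 lay inside the control range. The 1.64-fold difference of the first comparison passed the test (0.71 ± 0.24, adjusted p = 0.0291, edgeR), but the adjusted p rose to between 0.0593 and 0.0902 when any control library, LATS1/2-KO replicate 2 or LATS1/2-KO replicate 3 was left out. In the second comparison it was 0.32 (95% interval -0.22 to 0.86, adjusted p = 0.28). That one comparison passed and the other did not does not show a difference between the deleted groups, which is tested below.

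All 3 TET genes fell in both comparisons. Tet3 (ENSMUSG00000034832, chr6:83362373-83459084, minus strand) was the most abundant of them, at 5308, 5274 and 5100 in control, 2259, 1914 and 2692 in LATS1/2-KO and 2191, 2129 and 2185 in LATS1/2-Sox9-KO. Every deleted library was at 2692 or less and every control library at 5100 or more. It was 2.28-fold and 2.41-fold lower (log2 fold changes -1.19 ± 0.13, adjusted p = 3.87e-05, and -1.27 ± 0.13, adjusted p = 2.07e-05, edgeR). Tet2 (ENSMUSG00000040943, chr3:133463679-133545139, minus strand) was at 3568, 3308 and 3398 in control, 2167, 2891 and 2401 in LATS1/2-KO and 1707, 2302 and 2125 in LATS1/2-Sox9-KO. It was 1.38-fold and 1.67-fold lower (-0.46 ± 0.14, adjusted p = 0.0203, and -0.74 ± 0.14, adjusted p = 0.00146), with no overlap in either case. The first of these lost its call without control replicate 1 (adjusted p = 0.065), LATS1/2-KO replicate 1 (0.062) or LATS1/2-KO replicate 3 (0.0633).

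Tet1 (ENSMUSG00000047146, chr10:62804570-62908996, minus strand) was the rarest of the 10 genes. Its raw counts were 274, 274 and 137 in control, 70, 59 and 74 in LATS1/2-KO and 1, 38 and 21 in LATS1/2-Sox9-KO, or 318, 311 and 171, 70, 50 and 67, and 1, 38 and 19 after normalization. The 3 groups formed 3 separate ranges. Tet1 was 4.26-fold lower in LATS1/2-KO (log2 fold change -2.09 ± 0.69, adjusted p = 0.0265, edgeR) and 13.8-fold lower in LATS1/2-Sox9-KO (-3.79 ± 0.76, adjusted p = 0.00177). The latter had a wide interval, -5.49 to -2.09, and without LATS1/2-Sox9-KO replicate 1, the library with a single count, it was -3.21 (9.23-fold, adjusted p = 3.76e-04), whereas it was -4.69 (25.7-fold) without LATS1/2-Sox9-KO replicate 2. Without control replicate 1 or 2, or LATS1/2-KO replicate 2 or 3, the first comparison had an adjusted p of 0.0648 to 0.0765.

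Of the PRC2 core genes, Eed and Ezh2 rose in both control comparisons and Suz12 passed in LATS1/2-KO only, with a call that depended on the processing. Eed (ENSMUSG00000030619, chr7:89954654-89980983, minus strand) encodes the subunit that reads the H3K27 mark. It was counted at 2476, 2557 and 2426 in control, 4203, 4150 and 3876 in LATS1/2-KO and 4648, 4335 and 4399 in LATS1/2-Sox9-KO. Each deleted library was above every control library, 1.64-fold and 1.79-fold on average (0.71 ± 0.09, adjusted p = 1.14e-04, and 0.84 ± 0.09, adjusted p = 3.30e-05, edgeR). Ezh2 (ENSMUSG00000029687, chr6:47530139-47595341, minus strand), the catalytic subunit, was at 2124, 1872 and 1354 in control, 3864, 2424 and 2682 in LATS1/2-KO and 2907, 2825 and 3486 in LATS1/2-Sox9-KO. No deleted library overlapped control, and LATS1/2-KO replicate 1 was the highest of all. Ezh2 was 1.68-fold and 1.72-fold higher (0.75 ± 0.21, adjusted p = 0.0123, and 0.78 ± 0.21, adjusted p = 0.00897). With offsets for gene GC content, these values shrank to 0.33 and 0.42 and no longer passed (adjusted p = 0.213 and 0.112).

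Suz12 (ENSMUSG00000017548, chr11:79993106-80034123, plus strand), the scaffold subunit, was at 3981, 3617 and 3754 in control, 4177, 4533 and 5074 in LATS1/2-KO and 4281, 3919 and 3902 in LATS1/2-Sox9-KO. The LATS1/2-KO libraries lay just above control and the LATS1/2-Sox9-KO libraries overlapped it. Its 1.21-fold difference in LATS1/2-KO (log2 fold change 0.28 ± 0.10, adjusted p = 0.043, edgeR) was the least stable of the 9 calls. It failed under 15 of 20 alternative settings, DESeq2 among them (adjusted p = 0.11), and in 2 of these, with GC offsets, it turned to -0.24 (adjusted p = 0.104 without the replicate block). In LATS1/2-Sox9-KO it was 0.09 (95% interval -0.14 to 0.33), and with GC offsets -0.38 (adjusted p = 0.0183), so no direction is given for Suz12. Suz12 (41.6%), Tet1 (43.7%) and Ezh2 (44.4%) had the lowest exon GC content of the 10, against 54.0% for Dnmt1. Long noncoding genes on the opposite strand overlap 0.255% to 6.82% of the exon bases of Dnmt3a, Tet2, Ezh2, Suz12 and Eed, and the library kit does not mark strand. The study's methods name the same strand as a condition of counting, and how that was applied is not clear, so the values from these stretches are uncertain.

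**Figure D3:**
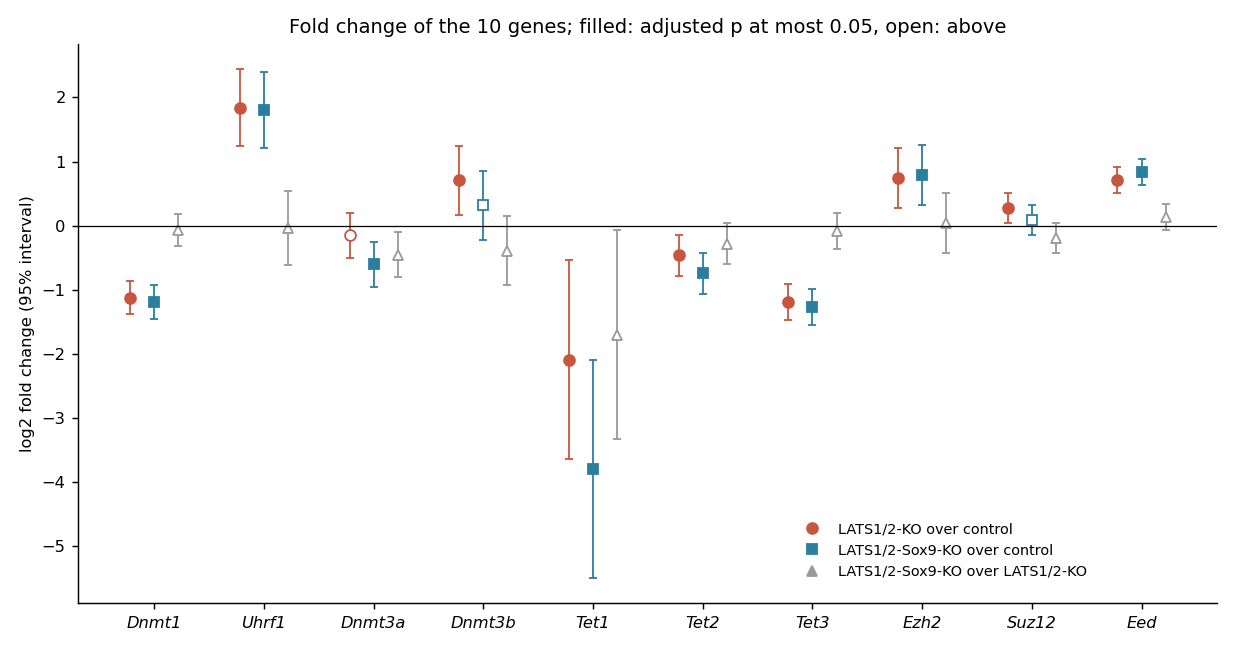
Log2 fold changes (y axis) of the 10 genes with 95% intervals, for LATS1/2-KO over control (red circles), LATS1/2-Sox9-KO over control (blue squares) and LATS1/2-Sox9-KO over LATS1/2-KO (grey triangles), filled where the edgeR adjusted p is at most 0.05. The grey points are all open, and Tet1 has the widest intervals, as far as -5.49.

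Levels between genes were compared as CPM per kilobase of merged exon. In control the order was Dnmt1 (23.2 ± 2.4 (SD, n = 3)), Suz12 (14.2 ± 0.7), Eed (12.1 ± 0.3), Tet3 (5.82 ± 0.12), Ezh2 (4.96 ± 1.09), Dnmt3a (4.11 ± 0.44), Tet2 (3.77 ± 0.15), Uhrf1 (2.81 ± 1.12), Dnmt3b (1.28 ± 0.12) and Tet1 (0.320 ± 0.100). The first 3 stood apart from each other and from the rest, the ranges of neighbours from Tet3 to Uhrf1 overlapped, and Dnmt3b and Tet1 each stood apart. In LATS1/2-KO, Eed (19.8 ± 0.9) and Suz12 (17.3 ± 1.7) led with overlapping ranges. They were followed by Dnmt1 (10.7 ± 1.1), Uhrf1 (10.05 ± 2.28) and Ezh2 (8.32 ± 2.14), each overlapping the next, and then by Dnmt3a (3.70), Tet2 (2.74), Tet3 (2.55), Dnmt3b (2.10) and Tet1 (0.0752). LATS1/2-Sox9-KO kept Eed (21.6 ± 0.8), Suz12 (15.2 ± 0.8), Dnmt1 (10.2 ± 0.5), Uhrf1 (9.82 ± 0.57) and Ezh2 (8.55 ± 1.00) in that order. With the length of the longest transcript in place of merged exons, Eed (22.3) stood above Suz12 (16.1) and Ezh2 (11.9) above Tet3 (8.91) in control already. By that length Ezh2 was 2nd in LATS1/2-KO (19.9) and LATS1/2-Sox9-KO (20.5), so the order depends on the length used. Uhrf1 was 8th of the 10 in control by either length, and in both deleted groups it was 4th by merged exons and 5th by the longest transcript.

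The third comparison set the libraries labelled LATS1/2-Sox9-KO against those labelled LATS1/2-KO. None of the 10 genes passed in LATS1/2-Sox9-KO against LATS1/2-KO by edgeR, DESeq2 or limma voom (0 of 10 each), and 2, Dnmt3a and Tet1, had an unadjusted p under 0.05, beside 22.6% of all genes tested. Of all genes, 3.13% were called higher and 3.33% lower, and 3.71% passed the fold threshold as well. These 1249 calls were 249 without LATS1/2-Sox9-KO replicate 2, 422 without LATS1/2-KO replicate 3 and 2044 without LATS1/2-KO replicate 1. Dnmt1 differed by -0.07 on the log2 scale (95% interval -0.32 to 0.19), Tet3 by -0.08 (-0.36 to 0.20), Uhrf1 by -0.03 (-0.61 to 0.54), Ezh2 by 0.04 (-0.43 to 0.50) and Eed by 0.13 (-0.07 to 0.33). The Eed libraries of the 2 groups did not overlap, as was the case for 27.9% of all genes tested. Dnmt3a was lower by 1.37-fold (-0.45, interval -0.80 to -0.10, adjusted p = 0.124) and Tet1 by 3.24-fold (-1.70, interval -3.32 to -0.07, adjusted p = 0.201), neither past the threshold. The Tet1 value was -2.59 without LATS1/2-Sox9-KO replicate 2 and -1.11 without LATS1/2-Sox9-KO replicate 1. The libraries of the 2 groups overlapped for Dnmt3a and did not for Tet1. Dnmt3b (-0.39, interval -0.93 to 0.14), Tet2 (-0.28, interval -0.60 to 0.04) and Suz12 (-0.19, interval -0.42 to 0.05) did not pass either.

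The lists that follow are to be set beside the shares of all genes tested, 28.7% higher and 27.1% lower in LATS1/2-KO and 29.3% and 28.7% in LATS1/2-Sox9-KO. Partners of the DNA methylation enzymes were read from a list of 10 genes, of which 8 could be tested. In LATS1/2-KO 4 were higher and 1 was lower (median log2 fold change 0.51, against 0.04 over all genes), and in LATS1/2-Sox9-KO 3 were higher and 2 lower (median 0.18, against 0.01). Hells, a chromatin remodeller needed for methylation of repeats, rose 9.18-fold and 9.19-fold (log2 fold changes 3.20 ± 0.23 in both, adjusted p = 5.12e-06 and 3.41e-06, edgeR), from 277, 415 and 228 in control to 3403, 2404 and 2647 and to 2640, 2691 and 3134. With GC offsets the first value of Hells was 2.57. Cdca7, which recruits HELLS, rose 6.05-fold and 5.01-fold. Pcna rose 1.73-fold and 1.78-fold. Cdca7l rose 1.59-fold in LATS1/2-KO, a call lost without LATS1/2-KO replicate 2 (adjusted p = 0.0675), and differed by 0.08 on the log2 scale in LATS1/2-Sox9-KO (adjusted p = 0.756). Zfp57, a zinc finger protein that protects methylation at imprints, was 2.97-fold and 2.90-fold lower. Dnmt3l, the germ cell cofactor of DNMT3A, had no count in any library.

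Partners in DNA demethylation and repair were read next. Of 10 genes for demethylation and base excision repair, 4 were higher and 4 lower in LATS1/2-KO (median 0.24) and 5 were higher and 3 lower in LATS1/2-Sox9-KO (median 0.50). Apex1, the endonuclease for abasic sites, rose 2.10-fold and 2.46-fold, and the glycosylase genes Mbd4 (2.33-fold and 1.85-fold) and Smug1 (1.73-fold and 1.83-fold) rose as well. Gadd45b rose 2.05-fold and 3.06-fold while its paralogue Gadd45a was 3.60-fold and 3.67-fold lower. Cxxc5, a CpG-binding protein, was 3.50-fold and 4.31-fold lower. Among 10 readers of methylated CpG, 3 were higher and 5 lower in LATS1/2-KO (median -0.38) and 4 were higher and 5 lower in LATS1/2-Sox9-KO (median -0.41). Mbd4 is counted in this list as well as in the one before. Zbtb4 (3.71-fold and 3.46-fold) and Mbd6 (3.84-fold and 3.36-fold) were the lowest, and Mbd5 was 1.40-fold and 1.69-fold lower, the first not passing without LATS1/2-KO replicate 3 (adjusted p = 0.0525). Zbtb33, the gene of KAISO, rose (log2 fold changes 0.68 and 0.56), but the first was 0.09 with GC offsets (adjusted p = 0.547). Mbd2 rose as well (0.42 and 0.51), although in LATS1/2-KO it did not pass without control replicate 2, LATS1/2-KO replicate 2 or LATS1/2-KO replicate 3.

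PRC2 also has subunits outside the core. Of 11 paralogue and accessory genes, 2 were higher and 4 lower in LATS1/2-KO (median 0.01) and 3 were higher and 6 lower in LATS1/2-Sox9-KO (median -0.27). Ezh1, the paralogue of Ezh2 that is common in resting cells, was at 3932, 4206 and 4838 in control, 2768, 2577 and 2295 in LATS1/2-KO and 2665, 2632 and 2654 in LATS1/2-Sox9-KO, which was 1.70-fold and 1.63-fold lower (adjusted p = 3.19e-04 and 4.62e-04, edgeR). Per length, the ratio of Ezh2 to Ezh1 was 0.602, 0.496 and 0.312 in control, 1.56, 1.05 and 1.30 in LATS1/2-KO and 1.22, 1.20 and 1.46 in LATS1/2-Sox9-KO. The ratio was higher in every deleted library than in every control library, though Ezh2 itself lost its call with GC offsets. Jarid2 (3.13-fold and 3.71-fold) and Aebp2 (1.64-fold and 1.80-fold), accessory subunits of the PRC2.2 form, were lower. Phf1, of the PRC2.1 form, was 3.35-fold and 3.09-fold lower. Rbbp7, a histone-binding subunit, rose 1.77-fold and 1.69-fold. Lcorl rose 1.69-fold and 1.48-fold, but the first of these was 0.10 on the log2 scale with GC offsets (adjusted p = 0.659).

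Polycomb repressive complex 1 (PRC1) binds or adds to the marks of PRC2. Of 22 subunit genes, 5 were higher and 9 lower in LATS1/2-KO (median -0.38), and 5 were higher and 13 lower in LATS1/2-Sox9-KO (median -0.75). Pcgf5 rose 4.35-fold and 3.95-fold, Yaf2 3.18-fold and 1.99-fold, Cbx2 2.88-fold and 2.11-fold, and Pcgf3 1.93-fold and 1.77-fold. Ring1, one of the 2 catalytic subunits, was 3.38-fold and 3.02-fold lower, and Bcor, of the variant complex PRC1.1, was 2.85-fold and 3.09-fold lower. Between the deleted groups 3 of the 22 PRC1 genes were lower in LATS1/2-Sox9-KO, beside 3.33% of all genes. These were Rybp (1.63-fold, adjusted p = 0.0134), Rnf2 (1.37-fold, adjusted p = 0.0218) and Yaf2 (log2 difference -0.68, adjusted p = 0.0299, edgeR). None of the 3 passed without LATS1/2-Sox9-KO replicate 2, and over 20 alternative settings Rybp failed in 2, Rnf2 in 6 and Yaf2 in 8. Rybp and Rnf2 were outside the rule for named genes and were chosen with their values known. Rnf2 encodes the other catalytic subunit and Rybp and Yaf2 are paralogues within the variant complexes.

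Among genes that oppose Polycomb, Kdm6b was much lower. Of the 6 genes for H3K27 demethylases and the PR-DUB complex, which removes the ubiquitin mark of PRC1, 5 could be tested, with 1 higher and 3 lower in both control comparisons (medians -0.41 and -0.42). Kdm6b, an H3K27 demethylase, was at 31691, 30094 and 21845 in control, 3833, 2062 and 3359 in LATS1/2-KO and 3610, 2596 and 2887 in LATS1/2-Sox9-KO. It was 9.04-fold and 9.20-fold lower (log2 fold changes -3.18 ± 0.25, adjusted p = 7.64e-06, and -3.20 ± 0.25, adjusted p = 5.11e-06, edgeR), the largest difference in this list. Per length, the ratio of Ezh2 to Kdm6b went from 0.0664 ± 0.0030 in control to 1.04 ± 0.20 and 1.08 ± 0.21 (SD, n = 3), which was 15.6-fold and 16.2-fold higher. The size of this difference depended on the processing. With GC offsets the log2 fold changes in LATS1/2-KO were 0.33 for Ezh2 and -2.69 for Kdm6b, against 0.75 and -3.18 without them. Kdm6a, the other demethylase, differed by 0.13 and -0.03 (adjusted p = 0.257 and 0.826), and the first of these was -0.37 with GC offsets (adjusted p = 0.00679). Asxl1 was 2.00-fold and 1.83-fold lower and Bap1 1.33-fold and 1.34-fold lower, and the first value of Bap1 was -0.15 on the log2 scale with GC offsets (adjusted p = 0.222). Asxl2 was higher by 1.26-fold and 1.83-fold, but its first value failed under 9 of 20 alternative settings, DESeq2 and 5 of the left-out libraries among them, and turned to -0.19 with GC offsets. Asxl2 was also higher in LATS1/2-Sox9-KO than in LATS1/2-KO (1.45-fold, adjusted p = 0.0254), which failed when LATS1/2-KO replicate 2 or 3 or LATS1/2-Sox9-KO replicate 1 or 2 was left out (adjusted p of up to 0.0865). Asxl3 was close to 0 in all libraries and was not tested.

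**Figure D4:**
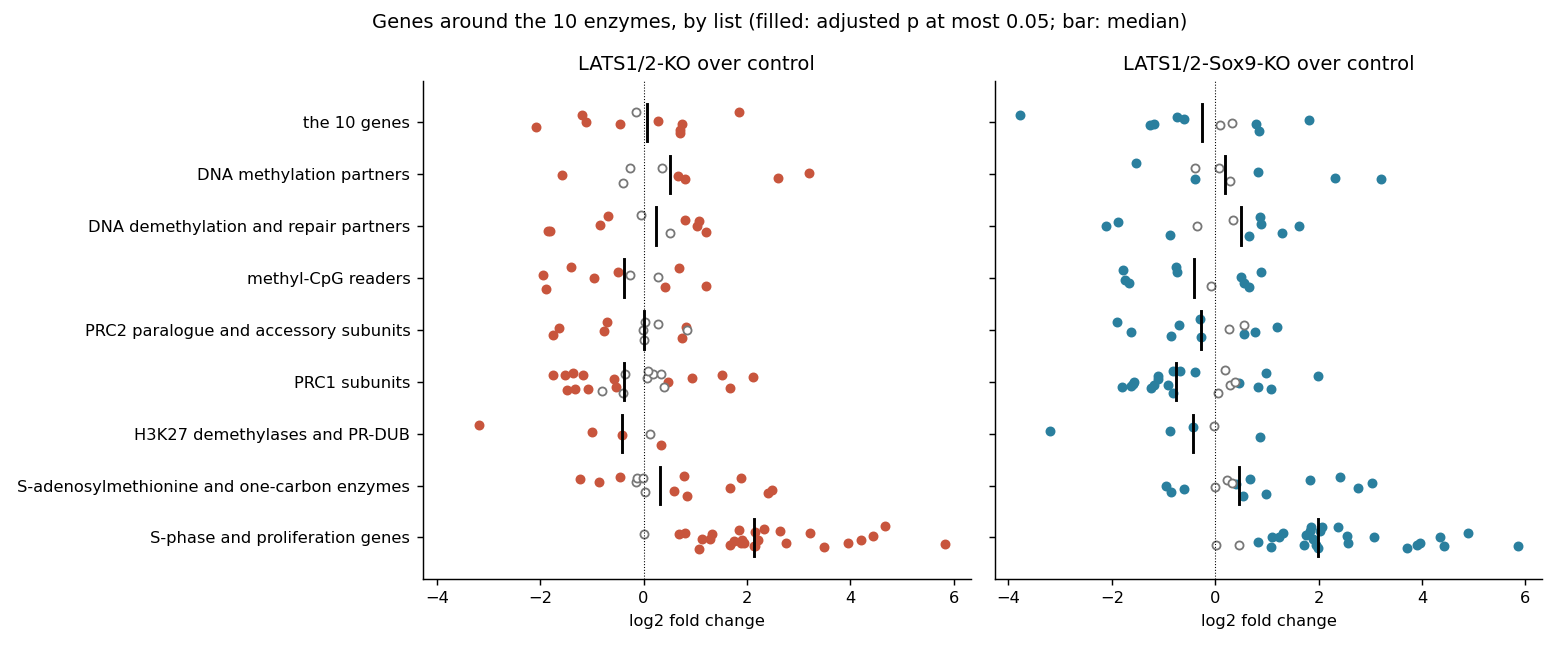
Log2 fold changes (x axis) of single genes in 9 lists for LATS1/2-KO over control (left) and LATS1/2-Sox9-KO over control (right), filled where the edgeR adjusted p is at most 0.05, with the list median as a black bar. The S-phase list is shifted to the right, with medians of 2.13 and 1.98, while the chromatin lists spread to both sides of 0.

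S-adenosylmethionine is the methyl donor of both enzyme families and is regenerated by the one-carbon cycle. Of 14 genes of these steps, 7 were higher and 3 lower in LATS1/2-KO (median 0.31) and 8 were higher and 3 lower in LATS1/2-Sox9-KO (median 0.47). Mtap, which salvages methionine, rose 5.63-fold and 8.23-fold, the mitochondrial enzyme gene Mthfd2 3.71-fold and 6.77-fold, and Tyms 3.19-fold and 3.55-fold. The methionine synthase gene Mtr (1.81-fold and 1.94-fold) was lower. Mthfd2 was the 1 gene of the list that was higher in LATS1/2-Sox9-KO than in LATS1/2-KO (1.82-fold, adjusted p = 0.031, edgeR), a call that failed under 6 of 20 alternative settings (adjusted p of up to 0.0869).

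Genes of S phase and mitosis, Pcna among them again, moved with the groups. Of 27 such genes, 26 rose in LATS1/2-KO and 25 in LATS1/2-Sox9-KO (medians 2.13 and 1.98), and the remaining 1 and 2 did not pass. Their summed normalized counts were 22297, 29488 and 18751 in control, 91306, 101998 and 110085 in LATS1/2-KO and 91856, 102728 and 109637 in LATS1/2-Sox9-KO, with Rrm1 as the most abundant gene and no gene at 0. The highest folds were those of Ccnb1 (57.3-fold and 57.7-fold), Cdk1 (25.4-fold and 29.6-fold), Ccna2 (21.7-fold and 20.5-fold) and Mki67 (18.6-fold and 15.7-fold), and Gins2 was at 1.62-fold and 1.38-fold, the latter not past the test and the former failing under 4 of 20 alternative settings (adjusted p of up to 0.109). Control replicate 2 weighed on these folds, and without it Cdk1 was 63.5-fold, Ccnb1 99.8-fold and Ccna2 28.5-fold higher in LATS1/2-KO. Control replicate 2 had the highest sum of the control libraries and also the highest control count of Uhrf1. Per length, Uhrf1 stood at 2.87 ± 0.68 times Mki67 in control and at 0.527 ± 0.111 and 0.610 ± 0.057 in the deleted groups, and Ezh2 at 5.52 ± 2.33, 0.435 ± 0.101 and 0.529 ± 0.034. Both ratios fell without overlap, since Mki67 rose more than either gene. The part of cycling cells in the values of the 10 genes was not tested.

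Patterns over the 9 libraries were compared with those of 5815 named protein-coding genes with a mean of at least 5 on the log2 scale of library-size-scaled counts (CPM), by the root mean square difference of centred log2 values. The nearest to Uhrf1 were Mcm5 (0.192) and Mcm3 (0.195), subunits of the replicative helicase. Dnmt1 was nearest to Nup98 (0.0962) and R3hdm4 (0.0989) and Tet3 to Chd4 (0.0865) and R3hdm4 (0.0884). Nearest to Eed were Cebpz (0.0492) and Crk (0.0494), to Suz12 Prdm4 (0.0543), to Ezh2 Eif3j2 (0.142) and Zfp146 (0.158), and to Tet2 Cox7a2l (0.0763) and Pex19 (0.0943). Dnmt3a was nearest to Bmpr2 (0.107) and Ubtf (0.113) and Dnmt3b to Pxdc1 (0.1503) and Arhgap21 (0.159). Tet1 itself lay below the level asked of these genes, so genes as rare as Tet1 were not compared with it. Its nearest among the more abundant genes were Acot1 (0.764) and Hp (0.995), and their distances do not say how unusual its pattern was. The points share libraries and depth, and these distances are a description.

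Markers of cell types were read in the same libraries. Of 12 luminal epithelial markers 2 were higher and 8 lower in both control comparisons, with summed normalized counts of 1050690, 1022840 and 1157310 in control, 948066, 922416 and 930856 in LATS1/2-KO and 1540100, 1415580 and 1330940 in LATS1/2-Sox9-KO. Krt18 was the most abundant. It rose 1.64-fold and 2.88-fold and Krt8, whose promoter drives the Cre, also rose (log2 fold changes 0.58 and 1.26), so the defining luminal keratins were present in every library. Epcam (1.67-fold and 2.46-fold), Prlr (28.0-fold and 78.8-fold) and Pgr (60.0-fold and 646-fold), the prolactin and progesterone receptor genes among them, were lower, and without LATS1/2-KO replicate 1 the first fold was 46.8 for Prlr and 94.4 for Pgr. Of 10 basal markers 4 were higher and 4 lower in LATS1/2-KO and 4 higher and 6 lower in LATS1/2-Sox9-KO. The basal sums were 4987, 5950 and 5344 in control, 269162, 161884 and 156497 in LATS1/2-KO and 158473, 281782 and 387075 in LATS1/2-Sox9-KO, with Krt14 as the most abundant gene (264-fold and 350-fold higher). Krt17 (15.9-fold and 108-fold) and Acta2 (13.2-fold and 5.23-fold) rose too, while Trp63 (28.3-fold and 18.2-fold) and Lgr5 (6.06-fold and 5.62-fold) were lower. Cnn1 was higher than control in LATS1/2-KO (log2 fold change 1.39). It was lower in LATS1/2-Sox9-KO than in LATS1/2-KO (-2.09, adjusted p = 0.00149, edgeR). Of 12 immune markers 9 could be tested, of which 3 were higher in LATS1/2-KO (Csf1r, C1qa and C1qb) and 4 higher and 1 lower in LATS1/2-Sox9-KO. Their sums were 1511, 824 and 677 in control, 5462, 3030 and 2049 in LATS1/2-KO and 3545, 3637 and 5199 in LATS1/2-Sox9-KO. Csf1r was the most abundant, Cd3e was at 0 in all libraries and the pan-leukocyte gene Ptprc was at 11 to 166.

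Stromal markers were read as well. Of 10 fibroblast markers 4 were higher and 1 lower in LATS1/2-KO and 3 higher and 2 lower in LATS1/2-Sox9-KO, with sums of 2531, 4455 and 9725 in control, 10290, 2775 and 3427 in LATS1/2-KO and 3172, 4260 and 7707 in LATS1/2-Sox9-KO and Dcn the most abundant. In LATS1/2-KO, Lum failed under 7 of 19 alternative settings, Dcn under 6 of 20 and Col1a1 under 2 of 20, and the log2 fold change of Col1a1 was 1.90, or 0.81 without LATS1/2-KO replicate 1. Of 8 endothelial markers 1 was higher and 1 lower, then 1 higher and 2 lower. The endothelial sums were 806, 667 and 838 in control, 866, 777 and 801 in LATS1/2-KO and 325, 873 and 910 in LATS1/2-Sox9-KO, with Pecam1 the most abundant. Of 6 adipocyte markers 5 were higher in LATS1/2-KO and 4 in LATS1/2-Sox9-KO by edgeR. With limma voom Cfd, Cidec, Adipoq and Fabp4 did not pass in LATS1/2-KO, which left Lep, and Fabp4 failed under 8 of 20 alternative settings. Their sums were 273, 184 and 289 in control, 484, 6590 and 3419 in LATS1/2-KO and 87, 2068 and 1437 in LATS1/2-Sox9-KO, with Fabp4 the most abundant and the defining gene Cfd at 0 in the 3 control libraries and in LATS1/2-KO replicate 1, and at 3093, 1780, 1, 861 and 360 in the others. Adipoq, Lep and Cidec were at 4 or less in each control library, and Plin1 did not pass (adjusted p = 0.778 and 0.617). Between the deleted groups, 2 of the 12 luminal markers were higher in LATS1/2-Sox9-KO and 2 were lower. Of the 10 basal markers 1 was higher and 3 were lower, beside 3.13% and 3.33% of all genes. Krt17 (log2 difference 2.76), Krt18 (0.82), Krt8 (0.68), Acta2 (-1.34) and Cnn1 (-2.09) passed there under all 20 alternative settings. The part of these cell types in the values of the 10 genes was not tested.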

How the data were processed

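The files held whole-number counts per gene for 9 libraries. Per the labels and the study's methods, libraries were made with the TruSeq RNA v2 kit, and the authors aligned read pairs to mm10 with STAR 2.6.0c, assigned properly paired, uniquely mapped reads to Ensembl genes by featureCounts (Subread 1.6.2), with a same-strand condition, and dropped mitochondrial genes. The counts deposited for each library are raw. Multi-mapped reads were thus lost, which lowers genes with close copies. Of 55450 identifiers, 55190 matched a GENCODE M21 symbol. Total counts ran from 44167762 to 61967651 and no pair of libraries within a group agreed within sampling noise (chi-square per gene of at least 12.8).

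The main test was the quasi-likelihood F-test of edgeR 4.0.16 (R 4.3.3). After filterByExpr and TMM scaling, all 9 libraries were fitted together with 1 mean per group, with Benjamini-Hochberg adjustment over 19357 genes. The study's own rule, an absolute log2 fold change above 1 at an adjusted p of at most 0.05, is given beside the adjusted p alone. Intervals are 95% intervals of the fit. The code was tested on simulated data. Alternatives were DESeq2 1.42.0, limma 3.58.1 (voom), other scalings and filters, GC offsets, a replicate block, the compared groups alone and each library left out. Figures used matplotlib 3.10.9.

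The 10 genes, the lists around them and the cell type markers were written with earlier results of these data known. Named were all 10 genes, the targeted genes, every gene of lists of at most 6 genes and, of each other list, up to 4 passing genes with the largest and up to 2 with the smallest log2 fold change in LATS1/2-KO, and the 2 genes nearest in pattern to each of the 10. Rybp, Rnf2, Impact, Peg3, Dnmt3l, Asxl3, Ptprc, Cd3e and the most abundant gene of a list, where outside this rule, were chosen with their values known. A few genes that this rule names are not reported here. Gene coordinates are those of GRCm38.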

Additional observations from a re-analysis of the deposited data

How the results depend on the processing

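Under 20 alternatives for each control comparison, Dnmt1, Uhrf1, Tet3 and Eed kept their direction and an adjusted p of at most 0.05 throughout. Of the 10 genes, 9 passed in LATS1/2-KO against control (55.7% of all genes tested), 7 to 9 did so under other tools, scalings, filters and offsets (33.8% of all genes without a filter, 46.5% to 62.1% otherwise), and 5 to 8 (47.2% to 55.8%) when a library was left out (5 without control replicate 1 or LATS1/2-KO replicate 3, 6 without control replicate 2 or LATS1/2-KO replicate 2, 7 without control replicate 3, 8 without LATS1/2-KO replicate 1 or any LATS1/2-Sox9-KO library). In LATS1/2-Sox9-KO against control, 8 passed (57.9% of all genes), and 7 with at least 10 counts in every library (64.3%), where Tet1 could not be tested. With the fold threshold added, 4 passed in each. The 1249 calls between the deleted groups were 2408 with DESeq2 and 249 to 2044 with a library left out. The split of calls between the deleted groups, 48.4% higher, was 58.9% with limma voom, 39.4% with upper-quartile scaling and 62.2% without LATS1/2-Sox9-KO replicate 2.

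Replicate numbers are shared between groups, but the labels do not say that they pair libraries. Deviations of same-numbered libraries correlated at -0.0594 to 0.1498, and those of differently numbered libraries at -0.147 to 0.0555. The highest values, 0.1498 and 0.0986, were both of same-numbered libraries of the deleted groups. Whether the numbers pair libraries is therefore not settled. With the replicate block, 8, 8 and 0 of the 10 passed, beside 53.6%, 56.3% and 5.04% of all genes tested. With GC offsets added 7, 8 and 1 passed, beside 52.3%, 56.1% and 5.65%. The 1 was Dnmt3a (-0.46, adjusted p = 0.0492, edgeR), lower in LATS1/2-Sox9-KO. GC offsets with the block moved the median of all genes by -0.109 in LATS1/2-KO against control.

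GC offsets, without and with the block, turned Suz12 to -0.24 and -0.24 in LATS1/2-KO and to -0.38 and -0.38 in LATS1/2-Sox9-KO, Asxl2 to -0.19 and -0.20 and Kdm6a to -0.37 and -0.37 in LATS1/2-KO. The cause was not tested. Plin1 in LATS1/2-KO was 0.52, -0.82 with limma voom, -0.30 with the block and -2.15 to 1.15 with a library left out. Between the deleted groups, differences near 0 changed sign. Uhrf1 was 7.94e-06 with the block and -0.18 to 0.14 with a library left out, Ezh2 was -0.014 with upper-quartile scaling and -0.060 to 0.27, Dnmt1 -0.13 to 0.016 and Tet3 -0.16 to 0.057. Tet1 had the lowest counts, with 1 in LATS1/2-Sox9-KO replicate 1, the library with the largest total.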

Other observations

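Genes known to be held by DNA methylation or Polycomb were read from further lists. At the INK4 locus, a classical PRC2 target, Cdkn2a was counted at 28, 27 and 10 in control, 4914, 750 and 1079 in the libraries labelled LATS1/2-KO and 1469, 2745 and 2580 in those labelled LATS1/2-Sox9-KO. Cdkn2b, its neighbour, was at 89, 71 and 96, then 4059, 1330 and 2027, then 2905, 3082 and 3542. Both rose (log2 fold changes of 6.68 ± 0.83 and 4.85 ± 0.40 in LATS1/2-KO and 6.69 ± 0.83 and 5.21 ± 0.40 in LATS1/2-Sox9-KO, edgeR adjusted p of at most 1.04e-04). Without LATS1/2-KO replicate 1, the LATS1/2-KO values were 5.38 (41.7-fold, against 102-fold with it) for Cdkn2a and 4.30 (19.7-fold, against 28.9-fold) for Cdkn2b.

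Of 18 imprinted genes, 16 could be tested, with 5 higher and 4 lower in LATS1/2-KO and 5 higher and 5 lower in LATS1/2-Sox9-KO. Nnat rose 10.6-fold and 4.74-fold, Grb10 3.93-fold and 3.47-fold and Cdkn1c 3.55-fold and 1.89-fold, while Peg10 was 4.41-fold and 4.81-fold lower and Plagl1 2.50-fold and 2.55-fold lower (the first not passing under 7 of 20 alternative settings, DESeq2 and the left-out LATS1/2-KO libraries among them). H19 was at 30, 8 and 2 in control but at 2000 in LATS1/2-KO replicate 1, against 98 and 118 in the other LATS1/2-KO libraries and 75, 28 and 68 in LATS1/2-Sox9-KO. Its log2 fold change in LATS1/2-KO was 5.75 ± 1.34 (adjusted p = 0.00458, edgeR) and 2.98 without that library (adjusted p = 0.009), and it did not pass with limma voom (adjusted p = 0.107). Between the deleted groups, 2 of the 16 imprinted genes were higher in LATS1/2-Sox9-KO, beside 3.13% of all genes. Impact (log2 difference 1.05, adjusted p = 0.00557, edgeR) passed under all 20 alternative settings, and Peg3 (1.05, adjusted p = 0.0422) failed under 9 of 20. Of 16 germline genes silenced by promoter methylation in somatic cells, 13 were too low to test. Of the other 3, Ddx4 (13.1-fold and 11.7-fold) and Piwil2 (3.01-fold and 2.48-fold) were lower, and Slc25a31 did not pass (log2 fold changes 0.96 and -0.16). The summed germline counts were low, at 144 to 284 in control, 71 to 80 in LATS1/2-KO and 59 to 81 in LATS1/2-Sox9-KO. Piwil2 was the most abundant of them, so the fold of Ddx4 rests on few counts.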
